A study of Mus musculus with 12 samples.

Results

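The 9 genes described here encode secreted proteins of the salivary glands, the airways and the lung alveoli, and they were read as self-antigens in sorted thymic epithelial cells (TEC). They are Mucl2, Bpifa1, Bpifa2, Bpifb1, Scgb1a1, Scgb3a1, Sftpb, Sftpc and Sftpd, chosen by symbol as airway and salivary genes with earlier results of these data known, out of 34547 genes with estimated counts. All 9 also had a row in the regularized log2 table. RNA was sequenced from cortical TEC (cTEC) and medullary TEC (mTEC) of wild-type (WT) mice and of Aβ0/0 mice, in 3 libraries for each of the 4 groups. H2-Ab1, which encodes the MHC class II (MHCII) β chain, is inactivated in all cells of Aβ0/0 mice, so TEC and every other MHCII-bearing cell of the thymus are affected together. Each library came from a pool of 5 to 10 mice aged 4 to 6 weeks, and the labels name no treatment. Single mice can therefore not be told apart, and p-values measure the spread between pools.

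Medullary TEC transcribe many genes that are otherwise restricted to single peripheral tissues, a process called promiscuous gene expression. Developing T cells that react to the resulting self-antigens are removed or diverted to the regulatory lineage, and the transcription regulators Aire and Fezf2 drive different parts of this repertoire. Secreted proteins of salivary gland and lung are among the antigens read in mTEC in this way, and both organs can become targets of autoimmunity when Aire is missing.

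Among these genes, 3 patterns stood beside each other. Scgb3a1 and Bpifa2 were read in all 3 WT mTEC libraries and had no count in any Aβ0/0 mTEC library, and Mucl2 was at 20.2% of its WT level in Aβ0/0 mTEC. The main test, by edgeR, called Scgb3a1 and Bpifa2 but not Mucl2, and 4 of 12 alternatives kept the first 2 calls. Over all genes tested, 5.61% had at most 3 counts in each Aβ0/0 mTEC library and more in each WT mTEC library. Bpifb1, Scgb1a1, Sftpc and Bpifa1 scattered widely among the Aβ0/0 mTEC libraries, and no difference of their means was detectable. Bpifa1 was the only one of the 9 whose mean TPM was higher in cTEC than in mTEC in both genotypes, and it ranked 62nd of 22445 genes with a value above 0 in WT cTEC.

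The sequences that follow show what was measured for Mucl2 and which DNA lies before the genes at the ends of these patterns, Bpifa1 and Scgb3a1. The study lists a primer pair for PCR as Spt1, which it spells out as serine palmitoyltransferase. Spt1 is also an older symbol of Mucl2, and both primers match the Mucl2 transcript in full, with a product of 86 bases. Capitals mark bases that differ from the best ungapped match in the neighbouring gene Mucl1. Transcripts of Mucl2 and Mucl1 were 88% identical over 326 aligned bases when searched from Mucl2, and 77.0% over 335 when searched from Mucl1.
Mucl2 forward primer: gtgttgcttggtgtttccac
Mucl2 reverse primer: gCagaatcagcagttCcaga
The forward primer matched Mucl1 in full and the reverse primer had 2 mismatches, so the reverse primer alone separates the neighbours. In the libraries, reads in the part that both genes share could be assigned to either of them, and the levels of Mucl1 and Mucl2 carry that uncertainty.

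The 250 bases before the start of Bpifa1 (GRCm38.p6, chr2:154142630-154142879, plus strand) and of Scgb3a1 (chr11:49663345-49663594, plus strand) were read from RefSeq promoter records, which held 6 of the 9 genes. Capitals mark matches found on either strand. The letters TATAAA were searched for the TATA box. For the factor AP-1, whose binding element is well established, the search used TGACTCA. The core bound by NKX2-1, the homeobox factor of lung and thyroid, was searched as CAAGTG, and in the same way the forkhead core of FOXA proteins was taken as TGTTTAC.
Bpifa1: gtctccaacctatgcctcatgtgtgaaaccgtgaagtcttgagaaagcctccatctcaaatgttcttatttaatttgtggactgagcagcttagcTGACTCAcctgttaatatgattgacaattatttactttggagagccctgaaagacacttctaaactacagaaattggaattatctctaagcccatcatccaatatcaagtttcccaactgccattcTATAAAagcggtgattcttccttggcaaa
Scgb3a1: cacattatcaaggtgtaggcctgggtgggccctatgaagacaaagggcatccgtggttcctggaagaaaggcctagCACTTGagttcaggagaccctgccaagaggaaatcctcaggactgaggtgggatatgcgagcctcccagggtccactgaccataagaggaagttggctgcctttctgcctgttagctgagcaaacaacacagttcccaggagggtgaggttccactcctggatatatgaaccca
Bpifa1 held a TATA box 29 bases and an AP-1 match 155 bases before its start. Scgb3a1 held an NKX2-1 core on the minus strand 174 bases before its RefSeq start, which lies upstream of the GENCODE start given with its values. Of 32851 promoter windows of this length, 12.4% held the TATA box, 4.46% the AP-1 motif, 11.6% the NKX2-1 core and 3.17% the FOXA core. These motifs did not overlap in either window. Sftpb held an AP-1 match 18 bases before its start, and Mucl2, Bpifa2 and Bpifb1 held none of the 4 in theirs.

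The libraries held between 21710319 and 36139815 estimated counts. H2-Ab1, the targeted gene, was at 11500, 12000 and 11700 TPM (the share of a gene's transcripts after correction for their length) in WT mTEC and at 2470, 3540 and 3180 in Aβ0/0 mTEC. In cTEC it was at 9060, 9640 and 9150 in WT and 3150, 3960 and 3490 in Aβ0/0, so its RNA was lower but still abundant in all 6 Aβ0/0 libraries. The 9 mTEC markers summed to 13500 to 17100 CPM (counts scaled to the library total) in WT mTEC, 15600 to 25000 in Aβ0/0 mTEC and 2360 to 3860 in cTEC, in the mTEC libraries mostly from Ccl21a. Among them Cd80 and Cd86, costimulatory molecules of mature mTEC, were at 14.7 to 23.0 and 10.5 to 19.3 CPM in WT mTEC and at 3.97 to 8.52 and 0.0402 to 0.586 in Aβ0/0 mTEC. The 7 cTEC markers summed to 977 to 1640 CPM in WT mTEC, 1460 to 2780 in Aβ0/0 mTEC and 8070 to 20400 in cTEC. The 5 granulocyte markers summed to 511 to 660 CPM in WT mTEC and to 75.8 to 310 in Aβ0/0 mTEC, where Ngp was at 0. The 6 dendritic and B cell markers summed to 17.9 to 24.8 CPM and 1.61 to 14.7, with Itgax at 0 in Aβ0/0 mTEC. The 5 markers of TEC in general summed to 19000 to 20900 CPM in WT and 7790 to 9500 in Aβ0/0 mTEC, and most of that gap lay in H2-Ab1 itself and in H2-Aa, its partner chain, with 5680 to 6430 and 1970 to 3610 CPM. Epcam, the epithelial marker of the sort, was at 960 to 1040 CPM in WT and 1010 to 1110 in Aβ0/0 mTEC. The part of these differences in the values below was not tested. In sorted bulk samples, fewer cells of a type and less RNA per cell cannot be told apart. In mTEC, the number of sorted cells and the genotype cannot be told apart either, while the cell numbers listed for cTEC overlap between genotypes.

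**Figure D1:**
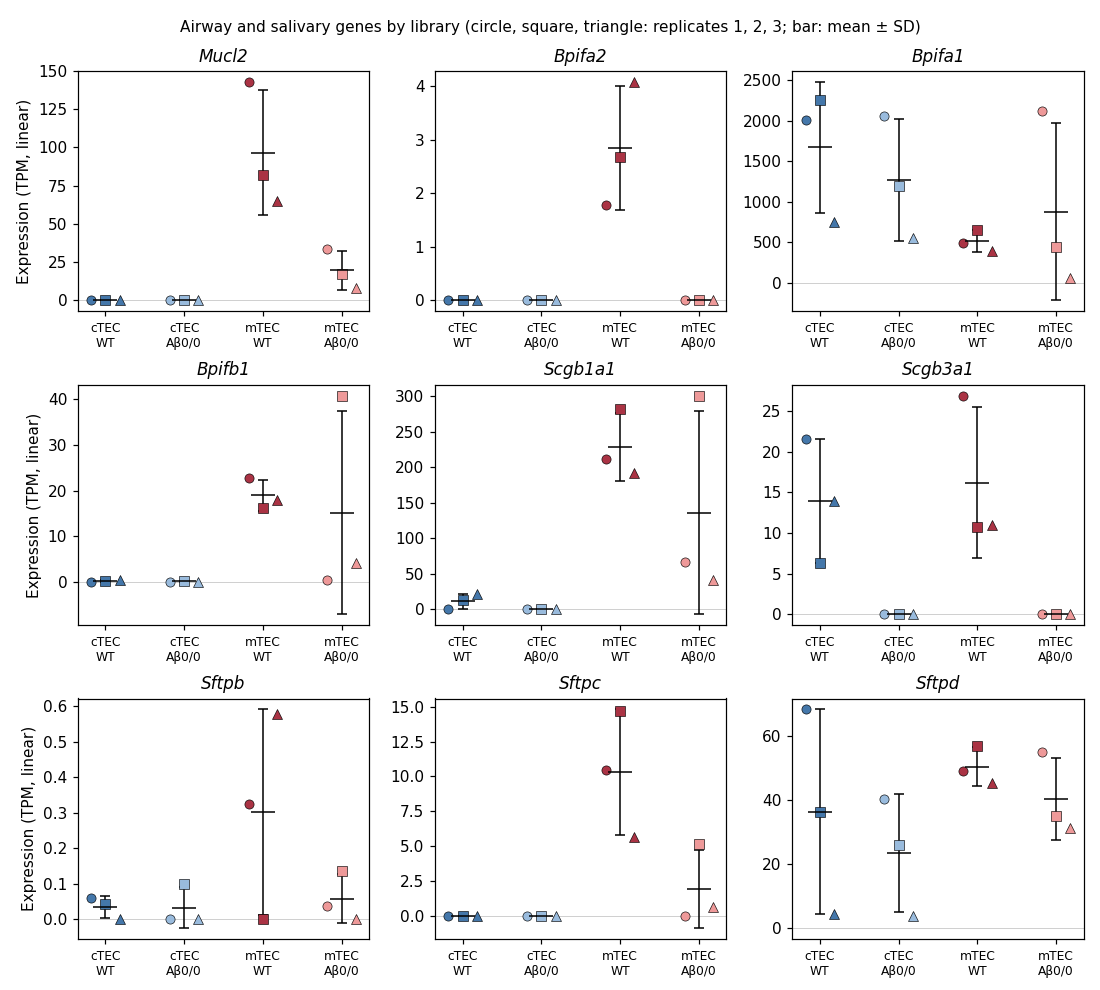
Expression of the 9 genes in each library, in TPM on linear axes that differ between panels, for cTEC and mTEC of WT and Aβ0/0 mice. Circles, squares and triangles are replicates 1, 2 and 3, and the bars give the mean ± SD (n = 3). Scgb3a1 is at 0 in all 6 Aβ0/0 libraries, whereas Bpifa1 is read in all 12.

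Of the salivary genes, Mucl2, a mucin-like protein of saliva (chr15:103895855-103899312, minus strand), was read in mTEC only. Its TPM were 143, 81.9 and 65.2 in WT mTEC and 33.5, 17.0 and 8.15 in Aβ0/0 mTEC, from 94 to 1231 estimated counts, and no cTEC library held a count. The highest Aβ0/0 library stayed below the lowest WT library. The mean of 96.6 ± 40.8 TPM in WT mTEC (SD, n = 3) stood against 19.5 ± 12.8 in Aβ0/0 mTEC, with a log2 fold change of 2.2 (SE 0.53). This missed the threshold of 0.05 in edgeR's quasi-likelihood test, with an adjusted p of 0.0695. DESeq2 gave an adjusted p of 0.00108, limma on the regularized log2 values 0.0436, and edgeR without Aβ0/0 replicate 1 an adjusted p of 0.0374. The other 9 alternatives did not call it, with an adjusted p of up to 0.286 without WT replicate 1 and of 0.23 with the replicate block.

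Bpifa2, a parotid secretory protein that binds bacterial lipopolysaccharide (chr2:154008265-154016079, plus strand), was the lowest of the genes that were tested. Its estimated counts were 25, 65 and 91 in WT mTEC, or 1.78, 2.68 and 4.08 TPM, and 0 in each of the other 9 libraries. A count of 0 allows up to 3 counts in a library, so WT mTEC was at least 18.5-fold higher than Aβ0/0 mTEC and at least 18.1-fold higher than WT cTEC. The edgeR test passed the threshold for the genotype in mTEC (adjusted p = 0.0352) and for the subset in WT (adjusted p = 0.00672).

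Of the airway genes, Scgb3a1, a small secretoglobin of the airway surface (chr11:49663610-49665118, plus strand), was the only one read in WT cTEC and WT mTEC alike and in no Aβ0/0 library. Its estimated counts were 171, 117 and 105 in WT mTEC and 127, 50 and 132 in WT cTEC, and 0 in all 6 Aβ0/0 libraries. The WT levels were 26.9, 10.7 and 11 TPM in mTEC and 21.6, 6.26 and 13.9 TPM in cTEC, and the subsets overlapped. WT was at least 45.4-fold higher than Aβ0/0 in mTEC and at least 43.3-fold higher in cTEC. Between the same cTEC libraries the 8 thymocyte markers summed to 228 to 504 CPM in WT and 532 to 726 in Aβ0/0, and the 4 endothelial markers to 37.6 to 76.6 and 17.7 to 25.7, with none at 0, and their part was not tested. In edgeR the difference was called in mTEC (adjusted p = 0.0352) and not in cTEC (adjusted p = 0.695), where DESeq2 gave an adjusted p of 2.2e-06. Between WT mTEC and WT cTEC the log2 fold change was 0.23 (SE 0.70, edgeR adjusted p = 0.847). Over all genes tested, 1046 of 18636 (5.61%) had at most 3 counts in each Aβ0/0 mTEC library and more in each WT mTEC library, and 58 of 15432 (0.376%) did so in cTEC. Genes that did so in both subsets numbered 4, Scgb3a1 among them, and whether this exceeds what these shares alone would give was not tested.

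The calls of Bpifa2 and Scgb3a1 in mTEC rested on the full set of libraries and on the fit. Both were lost in edgeR without any one of the 3 WT mTEC libraries (adjusted p of 0.129 to 0.138 for each gene) and without Aβ0/0 replicate 2 or 3 (0.0587 to 0.0797), and both stayed without Aβ0/0 replicate 1 (0.0313 for Bpifa2 and 0.0298 for Scgb3a1). In edgeR they were also lost with no filter on low counts (0.0738 and 0.0736), on all 12 libraries (0.0959 for each) and with the replicate block (0.23 for each), while DESeq2 and limma called both. The counts of 0 were the same in each of these fits.

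Scgb1a1, the club cell secretory protein (chr19:9083636-9087958, minus strand), was the second most abundant of the 9 in WT mTEC. It was at 211, 282 and 192 TPM in WT mTEC and at 66.4, 301 and 41.5 in Aβ0/0 mTEC. Aβ0/0 replicate 2 lay above all WT libraries while replicates 1 and 3 lay below them. The log2 fold change was 0.47 (SE 0.79, edgeR adjusted p = 0.871). It was 2.10 without Aβ0/0 replicate 2 (SE 0.32, adjusted p = 0.0587), and 0.08 and 0.03 without Aβ0/0 replicate 1 or 3. In WT cTEC its levels were 0.179, 13.1 and 21.2 TPM, and in Aβ0/0 cTEC no library held more than 2 counts.

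Bpifb1, a long airway protein of the BPI fold family (chr2:154190818-154220369, plus strand), had the highest coefficient of variation of the 9 between Aβ0/0 mTEC libraries, 147%, close to the 145% of Sftpc. Its TPM were 22.8, 16.1 and 17.9 in WT mTEC and 0.503, 40.8 and 4.22 in Aβ0/0 mTEC, and the log2 fold change was -0.02 (SE 1.29, edgeR adjusted p = 0.996). The direction turned with 1 library, since the log2 fold change was 2.90 without Aβ0/0 replicate 2 (adjusted p = 0.149). The transcripts behind the gene differed too. Bpifb1-202 and Bpifb1-201, both protein coding, took 53.6% and 43.5% of its counts in WT mTEC replicate 1, 40.9% and 57.0% in replicate 2, and 22.2% and 75.3% in replicate 3. In Aβ0/0 mTEC replicate 2, Bpifb1-202 took 99.4% of 1848 counts. In Aβ0/0 replicate 3 it took 68.1% of 149 counts, and in replicate 1, with 15 counts, none. Over the 3 libraries of a group, Bpifb1-202 held 781.6 counts in WT mTEC and 1937.7 in Aβ0/0 mTEC, of which 1836 lay in replicate 2. By counts this transcript alone was thus higher in Aβ0/0, while the whole gene had a mean of 18.9 TPM in WT and 15.2 in Aβ0/0 mTEC.

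Bpifa1, known as SPLUNC1, a secreted lipid-binding protein of the nose and upper airways (chr2:154142880-154149219, plus strand), was the most abundant of the 9 in each group by mean TPM. Its levels were 2010, 2260 and 745 TPM in WT cTEC, 2060, 1190 and 549 in Aβ0/0 cTEC, 489, 654 and 386 in WT mTEC and 2120, 444 and 60.0 in Aβ0/0 mTEC. Each WT mTEC library was below each WT cTEC library, while the Aβ0/0 mTEC libraries held both the lowest level of all 12 libraries and one of the highest. In WT, mTEC stood below cTEC with a log2 fold change of -1.54 (SE 0.35, edgeR adjusted p = 0.0142). That call was lost without WT mTEC replicate 1 (adjusted p = 0.0703) or 3 (0.0725), and in edgeR fitted on all 12 libraries (0.267). The genotype gave log2 fold changes of 0.40 (SE 0.46, adjusted p = 1) in cTEC and -0.76 (SE 0.97, adjusted p = 0.821) in mTEC, and the latter became 0.72 without Aβ0/0 replicate 1. Its closest other transcript, Bpifa5, was 73.3% identical.

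Of the surfactant genes, Sftpc, a hydrophobic protein of alveolar surfactant (chr14:70520949-70524081, minus strand), was read in mTEC only. Its estimated counts were 121, 284 and 101 in WT mTEC, 0, 101 and 10 in Aβ0/0 mTEC, and 0 in cTEC. Aβ0/0 replicate 2 reached the count of WT replicate 3, so the groups touched, and at 5.16 TPM it lay under the lowest WT level of 5.67. The log2 fold change of 2.09 (SE 1.67) was not called (edgeR adjusted p = 0.674), and it was 4.85 without Aβ0/0 replicate 2 (SE 1.6, adjusted p = 0.157). Against WT cTEC, WT mTEC was at least 52.2-fold higher (edgeR adjusted p = 0.00382).

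Sftpd, a collectin of innate defence in the lung (chr14:41172214-41185149, minus strand), was read in all 12 libraries. Its TPM were 49.2, 57.0 and 45.2 in WT mTEC, 55.1, 34.9 and 31.4 in Aβ0/0 mTEC, 68.3, 36.3 and 4.32 in WT cTEC and 40.3, 26.0 and 3.83 in Aβ0/0 cTEC. In cTEC of both genotypes replicate 3 was far below the other two. WT mTEC lay above Aβ0/0 cTEC throughout, and the other pairs of groups overlapped. The log2 fold changes were 0.24 for genotype in mTEC (SE 0.26), 0.55 for genotype in cTEC (SE 0.89), 0.72 for subset in WT (SE 0.67) and 0.99 for subset in Aβ0/0 (SE 0.74), with edgeR adjusted p between 0.485 and 1.

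Sftpb, the other hydrophobic surfactant protein (chr6:72304610-72314371, plus strand), did not pass the filter on low counts in any comparison. It had 6, 0 and 20 estimated counts in WT mTEC and at most 4 in any other library, and its protein-coding transcripts held at most 1 count in any library, the rest lying in transcripts with a retained intron or marked for decay. No difference was detectable at this depth.

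**Figure D2:**
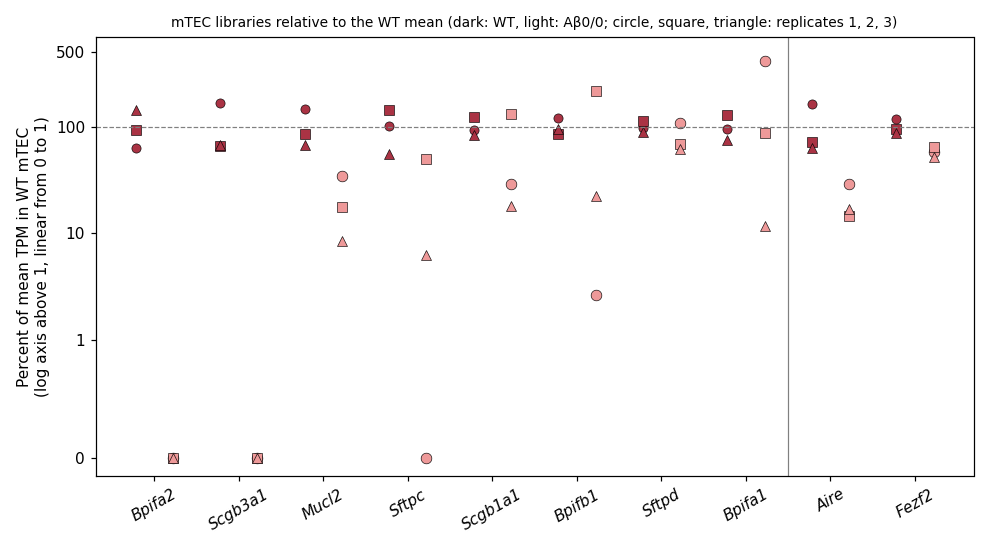
TPM of each mTEC library as a percent of the WT mTEC mean, for the 8 genes that were tested and for Aire and Fezf2, on an axis that is linear from 0 to 1 and logarithmic above. Dark points are WT and light points Aβ0/0. Bpifa2 and Scgb3a1 are at 0 in Aβ0/0, Mucl2 lies between 8.44% and 34.6%, and Bpifb1 and Bpifa1 spread from 2.66% to 216% and from 11.8% to 416%.

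Taken gene by gene, the Aβ0/0 mTEC libraries did not share one order. Replicate 1 held Bpifa1 at 416% of the WT mean and Bpifb1 at 2.66%. Replicate 2 held Bpifb1 at 216%, Scgb1a1 at 132% and Sftpc at 50.2%, with Bpifa1 at 87.0%. Replicate 3 was under 25% for each of these, with 11.8%, 22.3%, 18.2% and 6.29% for Bpifa1, Bpifb1, Scgb1a1 and Sftpc. The coefficient of variation was 125% for Bpifa1, 147% for Bpifb1, 105% for Scgb1a1 and 145% for Sftpc in Aβ0/0 mTEC, beside a median of 49.7% over 17881 tested genes with a level above 0. In WT mTEC it was 26.5%, 18.5%, 20.8% and 44.0%, beside a median of 21.7%. Sftpd varied less than the median in both groups, with 12% in WT and 31.7% in Aβ0/0 mTEC.

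In all, 2 of 8 genes tested were called for the genotype in mTEC, Bpifa2 and Scgb3a1, beside 1054 of 18636 genes (5.66%), and none of the 8 with the replicate number as a block, where 3 of them and 2929 genes in all had an unadjusted p under 0.05 and edgeR called 0. The levels of 4 of the 8 did not overlap between WT and Aβ0/0 mTEC by CPM, each with WT higher (Bpifa2, Scgb3a1, Mucl2 and Sftpc), beside 20.8% of all genes with WT higher throughout. The median log2 fold change of the 8 was 1.28, beside 0.00 over all genes tested. Of the 8, Bpifa2 and Scgb3a1 passed the filter on low counts through WT mTEC alone, so they could only come out higher in WT. In cTEC, 3 of the 9 could be tested and none was called by edgeR, beside 3 of 15432 genes (0.0194%). Scgb3a1 had an unadjusted edgeR p under 0.05, as did 333 genes in all. DESeq2 tested 6 of the 9 in cTEC and called Scgb1a1 and Scgb3a1, beside 121 of 23738 genes.

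Between subsets, 6 of 8 genes tested were called in WT, beside 26.8% of 18667 genes. Mucl2, Sftpc, Bpifa2, Bpifb1 and Scgb1a1 were higher in mTEC, and Bpifa1 was higher in cTEC. Mucl2 was at least 360-fold higher in mTEC. Bpifb1 had a log2 fold change of 6.19 (SE 0.81, edgeR adjusted p = 0.00192) and Scgb1a1 of 4.17 (SE 1.09, adjusted p = 0.0245). The Scgb1a1 call was lost without WT cTEC replicate 2 (0.0521) or any one WT mTEC library (0.0605 to 0.0845). In Aβ0/0 mice, 2 of 5 genes tested were called, beside 5.6% of 15687. Scgb1a1 was at least 462-fold higher in Aβ0/0 mTEC than in Aβ0/0 cTEC (edgeR adjusted p = 0.00992). Without Aβ0/0 mTEC replicate 2, which held 3082 of its counts, the bound was 162-fold and the adjusted p 0.0543. Mucl2 was at least 87.5-fold higher (adjusted p = 0.0338). With the pool of mice as a block the Mucl2 call was lost (edgeR adjusted p = 0.129), as it was without any one of the 6 libraries (0.0703 to 0.0941), although no Aβ0/0 cTEC library held a count. Bpifb1 had a log2 fold change of 7.32 (SE 2.16, edgeR adjusted p = 0.106), and was called by DESeq2 (adjusted p = 0.000186) and by edgeR fitted on all 12 libraries (0.0254).

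Whether the genotype acted differently in mTEC and cTEC was tested on all 12 libraries. None of 8 genes tested was called in edgeR, beside 2 of 19461 (0.0103%). Scgb1a1 alone had an unadjusted p under 0.05, with a log2 difference of -6.72 (SE 2.04, adjusted p = 0.427). It was read with 1, 100 and 192 counts in WT cTEC and 0, 2 and 0 in Aβ0/0 cTEC. DESeq2 called Scgb1a1 (adjusted p = 0.0332), and limma on the regularized log2 values called Mucl2 (0.0345) and Bpifa2 (0.011). For Mucl2, Bpifa2, Scgb3a1 and Sftpc the groups with no count left the edgeR term without a usable estimate.

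Bpifa1, Bpifa2 and Bpifb1 lie in a row of 13 protein-coding Bpif genes on chromosome 2, which encode secreted proteins related to the bactericidal permeability-increasing protein. In each of the 3 WT mTEC libraries all 13 had more than 3 counts. In Aβ0/0 mTEC 7 did in replicate 1 and only Bpifa1 and Bpifb1 in replicates 2 and 3, and in cTEC only Bpifa1 and, in 3 of 6 libraries, Bpifb1. The direct neighbours of Bpifa1 did not share its level in cTEC. Bpifa3, on one side, had no count in any cTEC library and 7, 56 and 10 counts in WT mTEC. Bpifa5, on the other, also had none in cTEC, with 389, 447 and 317 counts in WT mTEC and 31, 0 and 0 in Aβ0/0 mTEC. Bpifa6, next to Bpifa2, had 41, 63 and 63 counts in WT mTEC and none elsewhere, and Bpifb5, next to Bpifb1, had 211, 297 and 223 in WT mTEC and at most 1 in any other library.

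**Figure D3:**
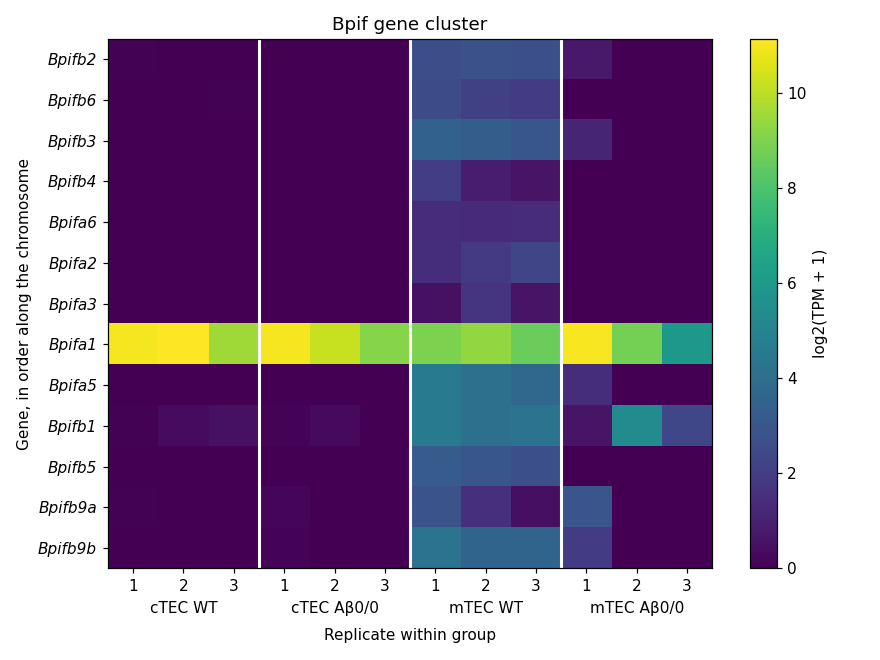
Expression of the 13 Bpif genes in their order along chromosome 2, as log2(TPM + 1), with one column per library. WT mTEC columns show values for the whole row of genes, while cTEC columns are lit at Bpifa1 and Aβ0/0 mTEC columns 2 and 3 at Bpifa1 and Bpifb1.

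The related genes were counted with the 9 left out, in lists fixed by name. A gene without more than 3 counts in any Aβ0/0 mTEC library passed the filter on low counts through WT mTEC alone. Such genes could only come out higher in WT, so the calls and medians below describe the lists and are no separate support. The edgeR calls below, like those of Bpifa2 and Scgb3a1, were lost without any one WT mTEC library and with the replicate block. Of 12 further BPI family genes tested, 4 were called higher in WT mTEC than in Aβ0/0 mTEC and none lower, beside the 5.66% called of all genes, with a median log2 fold change of 4.59, or 4.00 with genes at the floor set to their bound. These were Bpifb5, Bpifb6, Bpifa6 and Bpifb4, at least 79.3-, 40.1-, 17.8- and 14.4-fold higher (edgeR adjusted p of 0.0352 for the first 3 and 0.0458 for Bpifb4). Bpifb4 had 67, 32 and 20 counts in WT mTEC, and without WT replicate 1 its bound was 7.39-fold. DESeq2 called 9 of the 13 with counts, 8 higher in WT and 1 lower, beside 2440 of 27301 genes in all. The lower one was Lbp, which encodes the lipopolysaccharide-binding protein, at 29.1, 30.6 and 28.8 TPM in WT mTEC and 45.7, 34.2 and 43.8 in Aβ0/0 mTEC (log2 fold change -0.66, SE 0.21, edgeR adjusted p = 0.168). Of 13 further secretoglobins only 3 passed the filter, and of these Scgb1b7 was called, beside 5.66% of all genes. Scgb1b7 was at least 4.26-fold higher, with 10, 19 and 11 counts in WT mTEC and none in Aβ0/0. Of 11 with counts DESeq2 called 3 others, Scgb1b27, Scgb1c1 and Scgb2b7, and not Scgb1b7, beside the same 2440 of 27301 genes. The median of the 3 that passed the filter was 4.77, or 2.09 with Scgb1b7 at its bound.

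Scgb3a2, an airway secretoglobin close to Scgb3a1 in function, was looked at after its values were seen. It had 149, 108 and 109 counts in WT cTEC and 0, 0 and 1 in Aβ0/0 cTEC, at least 50.2-fold apart (edgeR adjusted p = 0.66). Unlike Scgb3a1 it was still read in 2 Aβ0/0 mTEC libraries, with 125, 448 and 0 counts beside 123, 712 and 218 in WT mTEC.

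Of 11 further surfactant genes tested, 1 was called, beside 5.66% of all genes, with a median log2 fold change of 0.57. This was Sftpa1, the other collectin of surfactant, with 351, 610 and 492 counts in WT mTEC and 2, 0 and 0 in Aβ0/0 mTEC, at least 155-fold higher in WT (edgeR adjusted p = 0.0352). Nkx2-1, the factor that drives surfactant genes in lung, had at most 43 counts in any library. Of 15 airway secretory genes tested, none was called by edgeR (median 0.40), beside the 5.66%. An unadjusted edgeR p under 0.05 was found for 2 of them, beside 2859 of 18636 genes. DESeq2 called 1 of 16 with counts, Muc5ac, beside 2440 of 27301 genes. Muc5ac, a gel-forming mucin, had a log2 fold change of 5.12 (SE 1.15, adjusted p = 0.0518).

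Of 11 further salivary genes tested, 5 were called higher in WT mTEC and none lower, beside 5.66% of all genes, with a median log2 fold change of 2.51. The log2 fold change was above 0 for 7 of the 11, beside 9345 of 18636 genes in all. Dcpp1, Dcpp3 and Dcpp2, demilune cell and parotid proteins, were at least 254-, 125- and 96.9-fold higher, Cst10, a cystatin, at least 78.2-fold and Smr3a, a submaxillary gland protein, at least 26.0-fold (edgeR adjusted p of 0.0284 for Dcpp1 and 0.0352 for the others). Each Dcpp transcript was 94% to 95.9% identical to that of its closest other Dcpp gene, so the counts of single Dcpp genes are uncertain. Mucl1, the neighbour of Mucl2, had 528, 759 and 686 counts in WT mTEC and 246, 54 and 0 in Aβ0/0 mTEC and was not called (log2 fold change 2.51, SE 1.5, edgeR adjusted p = 0.531). Klk1, a tissue kallikrein, Aqp5, a water channel, Egf and the amylase Amy1 had mean TPM in Aβ0/0 mTEC of 231%, 215%, 183% and 146% of WT, and none of these was called. Single libraries carried the first 3 of these means. In Aβ0/0 mTEC replicates 1, 2 and 3, Klk1 stood at 565%, 94.7% and 32.7% of the WT mean, Aqp5 at 561%, 55.9% and 28.5%, and Egf at 120%, 402% and 26.2%. Amy1 stood at 176%, 261% and 0%.

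Of 8 regulators of promiscuous expression, 3 were called higher in WT mTEC, beside 5.66% of all genes, with a median log2 fold change of 1.22. Aire had 626, 275 and 243 TPM in WT mTEC and 111, 56.0 and 65.2 in Aβ0/0 mTEC, a mean of 20.3% of WT (log2 fold change 2.17, SE 0.36, edgeR adjusted p = 0.0352). Irf8 and Sirt1, known as regulators of Aire, had log2 fold changes of 1.26 (SE 0.18) and 1.96 (SE 0.24), each with an adjusted p of 0.0352. Fezf2 was at 291, 236 and 215 TPM and at 142, 161 and 127, a mean of 58.1% of WT, and was not called (log2 fold change 0.63, SE 0.21, adjusted p = 0.208). These lists and the 9 genes share the same 6 libraries, so their values stand side by side and are not independent of each other.

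**Figure D4:**
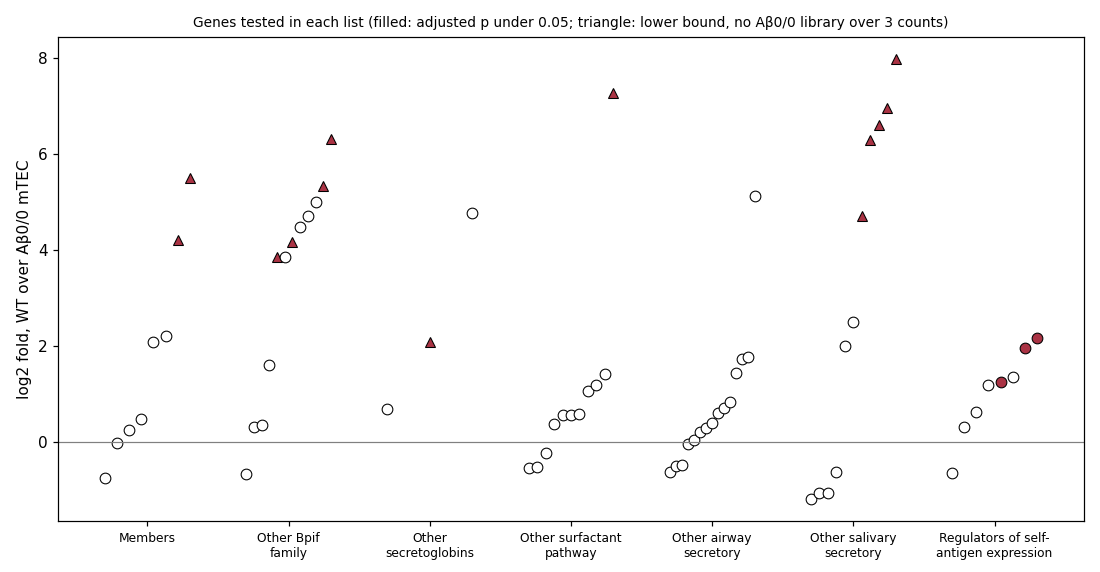
Log2 fold of WT over Aβ0/0 in mTEC for each gene tested in each list, with the 9 genes shown as their own list and left out of the others. Filled symbols passed an adjusted p of 0.05 in edgeR and triangles are lower bounds for genes without more than 3 counts in any Aβ0/0 library. The called genes all lie above 0, and the airway secretory list has none.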

How the data were processed

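Poly-A RNA of sorted TEC was amplified with a SMART-Seq v4 kit and sequenced. The submitters' processing notes list bcl2fastq 2.20.0, Trim Galore, kallisto 0.43, DESeq2 and the build mm10. For 109282 transcripts per library the authors deposited estimated counts and TPM from kallisto. A regularized log2 table per gene was also deposited, which the authors computed with DESeq2. Of the transcripts, 107987 matched GENCODE M21 (GRCm38), and the others, with 0.45% to 0.512% of the counts of a library, were left out. Counts and TPM were summed to 34547 genes and counts were rounded.

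The groups were compared with edgeR 4.0.16 (quasi-likelihood test, robust, TMM, filterByExpr) in R 4.3.3, on the 6 libraries of a comparison or all 12 for the difference between subsets, with Benjamini-Hochberg adjustment over all genes tested and a threshold of 0.05. The standard error is the log2 fold change divided by the root of F. Alternatives were RLE factors, no filter, DESeq2 1.42.0, limma 3.58.1 on the regularized log2 values, all 12 libraries, a replicate block and leaving out each library. TPM were also taken from the single transcript with the most counts, which for Bpifb1 in WT mTEC gave 7.54 in place of 18.9. Against a group with at most 3 counts in each library, a fold is the mean CPM of the other group over the mean CPM of 3 counts per library. Bounds without each library were added after seeing the data. Bounds cover counting error only, since amplified reads without molecular identifiers are not independent molecules.

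The 9 genes and the lists were chosen with earlier results of these data known. Named beside the 9 were list genes called in mTEC (at most 6 per list, by WT level), Bpif neighbours, Aire, Fezf2 and H2-Ab1. Nkx2-1, Muc5ac, Mucl1, Scgb3a2, Lbp, Klk1, Aqp5, Egf, Amy1 and the secretoglobins called by DESeq2, also of these lists, were named after their values were seen. Of the lists, Muc19 alone was not in the annotation. On simulated data with 200 shifted genes (log2 fold of 3), edgeR found 46.5% of them with 3 false calls for the genotype in mTEC and 67.5% with 12 in cTEC.

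The libraries of both subsets with the same genotype and number were taken as one pool of mice, since the authors list cell numbers of both per sorting. Deviations of such libraries from their group means correlated by 0.219, 0.038 and 0.082 in WT and 0.24, 0.091 and 0.055 in Aβ0/0. Sequence identity was measured with BLAST 2.17.0. Python 3.11.15, numpy 2.4.6, pandas 2.3.3 and matplotlib 3.10.9 were used.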

Additional observations from a re-analysis of the deposited data

How the results depend on the processing

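For the genotype in mTEC, the 2 genes of the 9 and the 1054 genes in all that edgeR called became 0 and 27 with no filter, 0 and 20 on all 12 libraries, 0 and 0 with the replicate block, and 3 and 2440 with DESeq2. The study lists the cell yields of WT and Aβ0/0 mice side by side under each replicate number, without saying that they were sorted together, so whether a number marks a shared sorting is not settled. Deviations of same-numbered libraries correlated by 0.232, 0.08 and 0.053 in mTEC, where 6 of 6 libraries correlated best with their own number, and by 0.245, -0.039 and 0.058 in cTEC, where 2 of 6 did. Leaving out one library gave 0 to 3 of the 9 and 0 to 2377 genes, the latter without Aβ0/0 replicate 1. In cTEC the 3 genes called became 7 with no filter, 121 with DESeq2, 0 with the replicate block, 7 with limma and 16 on all 12 libraries, and 1 to 3 without one library, and of the 9 genes 0 were called except 2 with DESeq2. Between subsets in WT, 4997 genes became 2760 on all 12 libraries and 3395 to 7572 without one library, with 4 to 6 of the 9 called. In Aβ0/0, 878 became 2760 with DESeq2, 1398 with limma, 1819 on all 12 libraries and 338 to 456 without one library, and 2 of the 9 became 3 with DESeq2 and on all 12 libraries, 1 with the replicate block and 0 to 1 without one library. For the difference between subsets, 2 genes became 398 with DESeq2, 941 with limma, 0 with the replicate block or with the pool of mice as a block (an alternative chosen after seeing the data) and 1 to 18 without one library. Of the 9, 0 became 1 with DESeq2 and 2 with limma. The cause was not tested.

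Log2 fold changes that turned were those of genes not called. For the genotype in mTEC, Bpifa1 went to 0.27 (block), 0.31 (limma) and 0.72 (without Aβ0/0 replicate 1; -1.31 to 0.72 over all single libraries left out), and Bpifb1 to 1.91 (block), 1.36 (limma) and to 0.08, 0.04 and 2.90 without WT replicate 2, WT replicate 3 and Aβ0/0 replicate 2, in a range from -0.60. Sftpd in cTEC went to -0.25 without WT replicate 1, in a range up to 1.05. Between subsets, Scgb3a1 in WT went to -0.17 and -0.25 (up to 0.48) and Bpifa1 in Aβ0/0 to 0.11 (down to -1.95) without one library. For the difference between subsets, Bpifb1 went to 0.99 (limma) and 1.80 (down to -3.19), Sftpd to 0.50 and 0.22 (down to -0.78) and Bpifa1 to 0.38 (down to -1.66) without one library. The edgeR term of Scgb3a1 also turned, to -0.15 and -0.24 without one library, but it is no usable estimate, since no Aβ0/0 library held a count. The replicate block changed no other call of the 9.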

Other observations

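In the deposited regularized log2 table, genes without a count are not at a common low value. Scgb3a1 stood at 4.77 or 4.78 in its 6 libraries without a count and between 5.39 and 6.32 in the others, and Bpifa2 at 3.28 without a count and 3.64 to 3.99 with one. For Sftpb the table did not follow the counts, with 3.18 in WT mTEC replicate 2 (0 counts) and 3.10 in replicate 3 (20 counts). A difference read from that table is therefore far smaller than the bounds from counts for these genes.

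Among genes with a mean of at least 1 in that table, the 5 whose values over the 12 libraries were most like the mean centred values of the 9 genes were Nppc (Pearson r = 0.98), Cd52 (0.974), Irf5 (0.974), Fam89a (0.973) and Ptgds (0.972). This is a description over 12 libraries that fall into cTEC and mTEC and that share pools of mice and the scaling of the table.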
